A study of Homo sapiens with 6 samples.

Results

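The circadian clock genes studied here are 10 genes, picked by symbol from the 26255 genes listed for every sample: CLOCK and ARNTL, PER1, PER2 and PER3, CRY1 and CRY2, NR1D1 and NR1D2, and DBP. All 10 were found. Their mRNA was measured in 22RV1 cells, a human castration-resistant prostate cancer line, grown in full medium and treated for 24 h with vehicle (DMSO, 3 samples) or with 10 nM bruceantin (BCT, a quassinoid, 3 samples). No allele or transgene separates the groups, no synchronization of the cells is described, and RNA was taken at a single time, so levels can be compared between treatments but a rhythm cannot be read. The labels do not say that the 3 samples of a group came from separate cultures, and p-values therefore measure the spread between these samples, which may be technical.

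The clock is a loop of transcription that runs in most mammalian cells. CLOCK and ARNTL (also named BMAL1) pair and bind E-box sequences to activate the PER and CRY genes, whose proteins return to the nucleus and inhibit the pair. A second loop runs through the nuclear receptors NR1D1 and NR1D2 (REV-ERB alpha and beta), which the pair activates and which repress ARNTL, and DBP is a transcription factor activated through E-boxes whose own targets carry D-boxes. PER genes are also switched on by acute stimuli, outside the daily cycle.

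Levels are given as FPKM, fragment numbers divided by the length of the transcript and the size of the library, as deposited. Of the 10 genes, 9 averaged 1 FPKM or more across all 6 samples and were tested with limma on log2(FPKM + 0.1), a scale that understates the change of low genes. PER3 lay below that limit. A gene was called at an absolute log2 fold change above 0.85 with a Benjamini-Hochberg adjusted p below 0.05 over all 12729 genes tested. By this rule 5 clock genes rose (PER2, PER1, ARNTL, CRY2 and NR1D1), 1 fell (DBP), and 3 were not called (CRY1, CLOCK and NR1D2). NR1D1 averaged 0.944 FPKM with DMSO and passed the limit of 1 FPKM only through its BCT samples, so it had to differ to be tested. Of all tested genes, 13.9% were called higher and 17.8% lower (1764 and 2263 genes), a split that became 5706 and 653 when every sample was rescaled to the same FPKM sum. No BCT value of the 9 genes lay within the DMSO range, with 8 genes higher and 1 lower, while every BCT sample lay above every DMSO sample in 41.0% of all tested genes and below in 44.3%. The 8 genes other than DBP were all higher with an adjusted p that passed, which held for 39.3% of all tested genes. Over the 9 genes the log2 fold changes had a median of 1.31, against -0.038 over all tested genes. That median is the value of NR1D1, which passed the limit only through its BCT samples. Without NR1D1 the middle of the order lay between CRY1 at 0.82 and CRY2 at 1.34. These are bulk samples, in which a change in the mix of cells and a change in RNA per cell cannot be told apart.

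The 6 files hold no read counts, so the depth behind a gene is unknown; low values give depths relative to DMSO replicate 1 of 0.877 to 1 with DMSO and 1.06 to 1.13 with BCT. Of the 7 prostate epithelial markers, all 7 averaged 1 FPKM or more across the samples, with a summed level of 845.7 to 853.2 FPKM with DMSO and 1829 to 2005 FPKM with BCT; KRT8 and KRT18 were called higher and KLK3 lower. The 6 markers of stromal, immune and endothelial cells summed to 3.82 to 4.99 FPKM with DMSO and 11.4 to 14.9 FPKM with BCT. Of these, COL1A1 rose from 1.43 to 5.83 FPKM and CD68 from 2.50 to 6.39 FPKM on average, while COL1A2, PTPRC, PECAM1 and LYZ were below the limit for testing, with PTPRC, the pan-leukocyte marker, at 0.036 FPKM or less in every sample. The part of these genes in the clock results was not tested. BCT replicate 1 lay nearest to the DMSO mean of the 3 BCT samples in 69.1% of all tested genes, and in 8 of the 9 clock genes.

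The promoters of 4 clock genes are shown because the loop acts through short promoter motifs: PER1, PER2 and ARNTL rose, and DBP fell. Each is the 300 bases around a RefSeq transcript start on GRCh38.p14, in the direction of the gene, with the start at position +1. Letters in capitals mark a match on either strand to the E-box CACGTG, the related E'-box CACGTT, the D-box TTANGTAA, the nuclear receptor half-site AGGTCA, at which REV-ERB and ROR receptors can bind, or the cAMP response element TGACGTCA. PER1 lies at chr17:8152355-8152654 (minus strand), PER2 at chr2:238288561-238288860 (minus strand), ARNTL, listed as BMAL1, at chr11:13277540-13277839 (plus strand) and DBP at chr19:48637330-48637629 (minus strand).
PER1: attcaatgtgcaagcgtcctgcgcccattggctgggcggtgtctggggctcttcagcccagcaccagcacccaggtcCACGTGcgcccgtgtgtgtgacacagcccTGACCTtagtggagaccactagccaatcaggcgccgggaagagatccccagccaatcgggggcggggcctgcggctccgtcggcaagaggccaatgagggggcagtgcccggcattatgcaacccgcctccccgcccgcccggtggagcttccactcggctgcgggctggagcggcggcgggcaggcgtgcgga
PER2: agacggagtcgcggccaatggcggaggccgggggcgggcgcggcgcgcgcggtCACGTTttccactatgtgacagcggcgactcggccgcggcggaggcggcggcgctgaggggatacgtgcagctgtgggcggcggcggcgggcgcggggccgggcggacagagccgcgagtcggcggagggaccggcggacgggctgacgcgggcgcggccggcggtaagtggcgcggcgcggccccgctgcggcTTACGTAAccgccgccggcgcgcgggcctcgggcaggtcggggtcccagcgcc
ARNTL: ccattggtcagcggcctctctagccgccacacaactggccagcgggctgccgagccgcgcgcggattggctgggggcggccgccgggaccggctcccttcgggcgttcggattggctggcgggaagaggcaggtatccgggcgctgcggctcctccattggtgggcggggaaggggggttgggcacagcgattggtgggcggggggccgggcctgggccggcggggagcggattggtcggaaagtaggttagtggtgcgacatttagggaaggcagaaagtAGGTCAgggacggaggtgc
DBP: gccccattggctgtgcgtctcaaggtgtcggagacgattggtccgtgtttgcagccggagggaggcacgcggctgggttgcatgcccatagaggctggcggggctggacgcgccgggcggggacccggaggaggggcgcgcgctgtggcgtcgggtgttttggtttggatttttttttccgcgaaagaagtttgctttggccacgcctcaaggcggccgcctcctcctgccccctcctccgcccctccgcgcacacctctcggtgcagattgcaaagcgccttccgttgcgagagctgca

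RefSeq held a window for all 10 genes. The PER1 window had an E-box from position -173 and, on the other strand, a half-site from -144. The PER2 window had an E'-box from -197 and a palindromic D-box from -3, and the ARNTL window a half-site from +32. The DBP window held none of the 5 motifs, which says only that these letters are not in these 300 bases. In the windows not shown, E'-boxes occurred in CRY1 and NR1D1, a half-site in CRY2 and a D-box in PER3, while CLOCK and NR1D2 had no match. Thus 7 of the 10 windows held at least 1 motif, and the share of all RefSeq windows that do so was not computed. Over 27305 RefSeq windows of the same length, the E-box was found in 7.43%, the E'-box in 5.27%, the D-box in 2.25%, the half-site in 13.9% and the cAMP response element, which was in none of the 10, in 1.98%. No match overlapped that of another motif. A match is a description of the sequence and was not tested against expression.

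Of the activating pair, ARNTL rose and CLOCK was higher without being called. ARNTL, a basic helix-loop-helix factor encoded on chromosome 11 (13299274 to 13408812 on hg19), was at 2.05, 1.87 and 1.94 FPKM in the DMSO samples and at 4.53, 5.98 and 5.60 FPKM in the BCT samples. Every BCT sample was above every DMSO sample, and the mean rose from 1.95 ± 0.092 to 5.37 ± 0.756 FPKM (SD, n = 3 each). This was a log2 fold change of 1.40 (SE 0.11; limma, adjusted p = 7.4e-06). CLOCK, its partner and a histone acetyltransferase (chromosome 4, 56294068 to 56413076), measured 5.24, 6.08 and 5.36 FPKM in the vehicle samples against 8.11, 7.87 and 8.47 FPKM after BCT. Its groups did not overlap either, but its log2 fold change of 0.55 (95% interval 0.38 to 0.72, limma) stayed below the fold threshold. Within each sample the CLOCK to ARNTL ratio on the log2 scale went from 1.46 ± 0.174 with DMSO to 0.60 ± 0.219 with BCT (SD, n = 3 each). All 3 BCT ratios lay below all DMSO ratios, a difference of -0.86 (exact two-sided permutation p = 0.1, the smallest that 3 against 3 samples allow; adjusted p = 0.117 over 7 ratios).

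Among the repressors, PER2 and PER1 had the largest rises of the clock genes. PER2, which with CRY proteins inhibits the activating pair, measured 4.90, 5.43 and 5.07 FPKM in the vehicle samples against 17.9, 22.3 and 21.1 FPKM after BCT. The mean went from 5.13 ± 0.267 to 20.4 ± 2.27 FPKM (SD, n = 3 each), a difference of 1.97 in log2 (SE 0.087; limma, adjusted p = 6.7e-07), and 97.7% of all tested genes had a lower fold change. PER2 lies on chromosome 2 from 239152679 to 239197207 of hg19. PER1, the PER gene best known for fast induction by stimuli, measured 7.87, 7.91 and 8.36 FPKM in the vehicle samples against 20.2, 26.3 and 22.5 FPKM after BCT. Its mean rose from 8.05 ± 0.270 to 23.0 ± 3.08 FPKM, a difference of 1.49 in log2 (SE 0.093; limma, adjusted p = 2.1e-06). PER1 lies on chromosome 17 from 8043788 to 8055753. The DMSO samples of both genes lay close together and the BCT samples spread more widely, with BCT replicate 1 the lowest in each.

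PER3 measured 0.191, 0.175 and 0.169 FPKM in the vehicle samples against 0.151, 0.136 and 0.191 FPKM after BCT, so the groups overlapped. It is the PER paralog that the core loop does not need. No difference was detected in a fit without the filter on low values. It gave a log2 difference of -0.11 (SE 0.13, adjusted p = 0.51 from limma over 21543 genes). The pseudocount of 0.1 understates a change at these levels. The within-sample log2 ratio of PER3 to PER2 went from -4.23 to -6.31. The ratio of PER1 to PER2 went from 0.64 ± 0.092 to 0.16 ± 0.070 (SD, n = 3 each), so PER1 exceeded PER2 in all 6 samples and by less with BCT. Both ratios had groups that did not overlap, with an exact permutation p = 0.1 and an adjusted p of 0.117.

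The cryptochromes, which bind the activating pair directly and repress it, were both higher with BCT, and CRY2 was called. CRY2, on chromosome 11 from 45868669 to 45904799, measured 5.57, 5.26 and 5.54 FPKM in the vehicle samples against 12.9, 15.0 and 14.0 FPKM after BCT. The groups were far apart compared with their spread, and CRY2 was called at a log2 difference of 1.34 (SE 0.069; limma, adjusted p = 1.1e-06). CRY1, on chromosome 12 from 107385143 to 107487635, measured 11.9, 10.98 and 11.1 FPKM in the vehicle samples against 19.0, 20.8 and 20.3 FPKM after BCT. Its log2 fold change of 0.82 (95% interval 0.68 to 0.95) lay just under the threshold although its adjusted p was 4.0e-06 (limma). Without BCT replicate 1 it was called, at 0.85. The log2 ratio of CRY1 to CRY2 went from 1.04 ± 0.044 to 0.52 ± 0.046 (SD, n = 3 each; exact permutation p = 0.1, adjusted p = 0.117), and CRY1 remained the higher of the pair in all 6 samples.

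**Figure D1:**
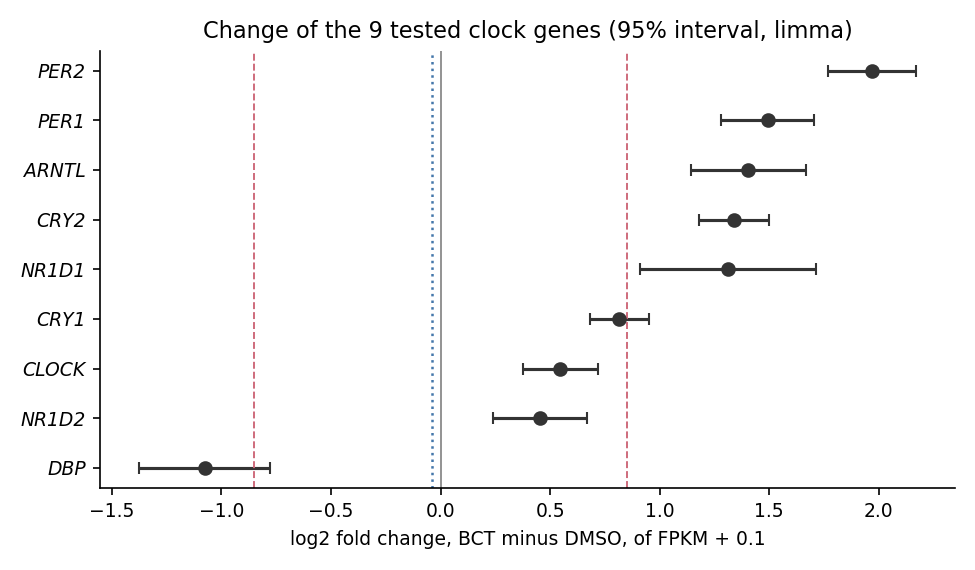
Log2 fold change of FPKM + 0.1, BCT minus DMSO, for the 9 tested clock genes with 95% intervals from limma. Dashed lines mark the fold threshold of 0.85 in each direction and the dotted line the median of all tested genes at -0.038. PER2 stands highest at 1.97 and DBP lowest at -1.08.

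Of the REV-ERB receptors, heme-binding repressors of ARNTL, NR1D1 rose and NR1D2 was not called. NR1D1 measured 0.759, 0.988 and 1.08 FPKM in the vehicle samples against 2.103, 2.93 and 2.44 FPKM after BCT. It rose by 1.31 on the log2 scale (SE 0.17; limma, adjusted p = 1.4e-04), but it passed the limit for testing only through the BCT samples, and a pseudocount of 1 in place of 0.1 gave 0.84, no longer called. NR1D2, on chromosome 3 from 23986751 to 24022109, measured 11.02, 10.0 and 10.4 FPKM in the vehicle samples against 12.4, 14.9 and 16.0 FPKM after BCT. Its log2 fold change of 0.45 (95% interval 0.24 to 0.67, adjusted p = 0.0019 from limma) was the smallest in size of the 9 tested clock genes and below the fold threshold. The 3 genes that missed the threshold were called when samples were rescaled to equal FPKM sums, CRY1 at 1.58, CLOCK at 1.302 and NR1D2 at 1.22. That rescaling moved the median of all tested genes from -0.038 to 0.73. Relative to the median, CRY1 stood at 0.85 before and after it, CLOCK at 0.58 and 0.57, and NR1D2 at 0.49 before and after. The log2 ratio of NR1D1 to NR1D2 went from -3.35 ± 0.297 to -2.50 ± 0.181 (SD, n = 3 each; exact permutation p = 0.1, adjusted p = 0.117), so NR1D2 was the more abundant receptor in all samples. The ratios carry the same pseudocount of 0.1, and with 1 in its place this difference went from 0.86 to 0.42. NR1D1 and the ARNTL gene it represses both rose, and their log2 ratio of -0.99 ± 0.294 with DMSO and -1.08 ± 0.081 with BCT overlapped between groups (difference -0.093, exact permutation p = 0.7). That overlap depended on the pseudocount: with 1 the groups stood apart, by -0.26 (exact permutation p = 0.1).

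NR1D1 shares its locus with THRA, the thyroid hormone receptor alpha gene, on the opposite strand. The deposited annotation gives NR1D1 an interval on chromosome 17 from 38218446 to 38256978, which overlaps that of THRA. It is wider than the GENCODE interval of NR1D1, from 38249046 to 38256842. The bearing of the wider interval on the NR1D1 value was not tested. In GENCODE 18.0% of the exonic bases of NR1D1 lie in exons of THRA. The library kit does not keep the strand, so fragments from the shared stretch could be counted for either gene. THRA went the opposite way, from 6.98, 5.98 and 6.62 FPKM with DMSO to 1.54, 1.07 and 1.14 FPKM with BCT, a difference of -2.31 in log2 (SE 0.14; limma, adjusted p = 1.8e-06). The share of THRA fragments in the NR1D1 value was not tested. UTS2, which overlaps 10.7% of the exonic bases of PER3, and MIR6883, within PER1, were listed at 0 in all samples.

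DBP was the only one of the 9 tested clock genes that was lower with BCT. It belongs with TEF and HLF to a family of D-box binding factors. DBP, on chromosome 19 from 49133817 to 49140807, measured 12.5, 9.98 and 14.7 FPKM in the vehicle samples against 6.13, 5.38 and 5.79 FPKM after BCT. The DMSO samples were the most scattered relative to their mean of the genes called, yet the groups did not overlap, and the mean fell from 12.4 ± 2.37 to 5.76 ± 0.375 FPKM (SD, n = 3 each). The log2 fold change was -1.08 (95% interval -1.38 to -0.78, adjusted p = 7.5e-05 from limma). Rescaling every sample to the same FPKM sum moved it to -0.32, and to -0.69 with MIR6087 left out of the sum, both not called; relative to the median of all genes, DBP stood at -1.04 as deposited and at -1.05 and -1.04 after them. SPHK2, a sphingosine kinase gene on the opposite strand whose exons cover 10.2% of the exonic bases of DBP in GENCODE, was higher with BCT, at 6.77 ± 0.254 against 9.02 ± 0.278 FPKM (log2 fold change 0.41). Of its family, TEF stood at 3.01 ± 0.324 FPKM with DMSO and 2.95 ± 0.202 FPKM with BCT, and HLF was at 0.203 FPKM or less in every sample.

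The ratio of DBP to NR1D1, both known E-box targets of the activating pair, set the gene that fell against one that rose. Its log2 value was 3.88, 3.21 and 3.65 in the DMSO samples and 1.499, 0.86 and 1.21 in the BCT samples. The groups stood apart by -2.39, the largest shift of the 7 ratios in size (exact permutation p = 0.1, adjusted p = 0.117). That rank depended on the pseudocount: with 1 in place of 0.1 the shift was -1.81, and that of PER3 to PER2 was -1.82. NR1D1 passed the limit for testing only through its BCT samples.

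**Figure D2:**
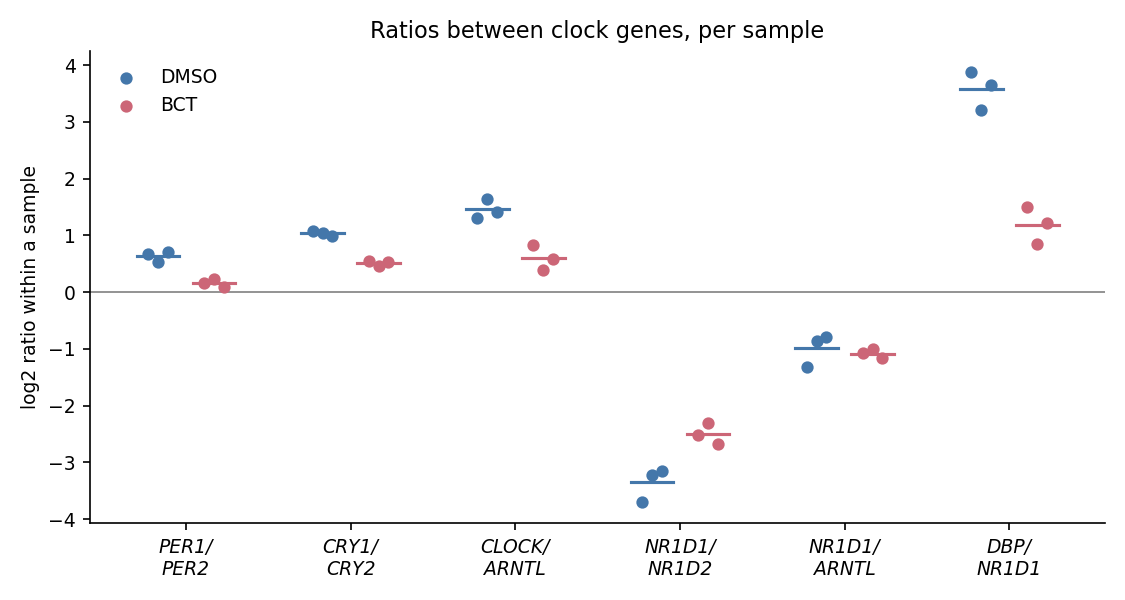
Within-sample log2 ratios of 6 pairs of clock genes, with points for samples and bars for group means (DMSO blue, BCT red). Only NR1D1/ARNTL overlaps between groups; DBP/NR1D1 moves furthest, from 3.58 to 1.19.

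The order of the clock genes by level changed with treatment. With DMSO the order was DBP (12.4 FPKM), CRY1 (11.3), NR1D2 (10.5), PER1 (8.05), CLOCK (5.56), CRY2 (5.46), PER2 (5.13), ARNTL (1.95), NR1D1 (0.944) and PER3 (0.178). Neighbors from DBP to NR1D2 overlapped in their samples, as did those from CLOCK to PER2. With BCT it was PER1 (23.0 FPKM), PER2 (20.4), CRY1 (20.0), NR1D2 (14.5), CRY2 (14.0), CLOCK (8.15), DBP (5.76), ARNTL (5.37), NR1D1 (2.49) and PER3 (0.159). There PER1, PER2 and CRY1 overlapped with their neighbors, as did NR1D2 with CRY2 and DBP with ARNTL. DBP thus went from first to seventh place, and PER2 from seventh to second.

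Around these genes, 5 further lists of 60 genes were examined in the same fit. They hold genes that act in or on the clock, its outputs, and companions of its acute inputs. Of the 54 tested, 13 were called higher and 4 lower, with a median log2 fold change of 0.42, while 13.9% and 17.8% of all tested genes were called higher and lower. These shares are also the background for the counts of each list below. With samples rescaled to equal FPKM sums, 35 were called higher and 2 lower. Under that rescaling 5706 and 653 of all 12795 genes tested were called higher and lower. The median gene then stood at 0.73.

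The 12 other loop factors were mixed, with 9 tested, 1 called higher, 2 called lower and a median of 0.17. BHLHE41 (DEC2), a repressor at E-boxes, rose from 1.68 ± 0.163 to 4.48 ± 0.597 FPKM (SD, n = 3 each), which is 1.36 on the log2 scale. ARNTL2, the paralog of ARNTL, fell from 2.71 ± 0.139 to 0.988 ± 0.102 FPKM (-1.37 in log2), so the 2 paralogs moved in opposite directions; ARNTL2 passed the limit for testing only through its DMSO samples. TIMELESS, a replication fork protein also linked to the clock, fell from 53.6 ± 0.221 to 12.4 ± 2.61 FPKM (-2.12 in log2). NPAS2, the paralog of CLOCK, had groups that overlapped (0.17, 95% interval -0.14 to 0.47), and so did CIART, a CLOCK-ARNTL repressor with E-box control (0.18, 95% interval -0.16 to 0.51). NFIL3, the repressor that competes at D-boxes, was higher at 0.56 but below the fold threshold.

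The kinases, ubiquitin ligases and proteases that set the stability of clock proteins were mostly below the fold threshold. Of 16 genes, 14 were tested, 2 were called higher and 0 lower, with a median of 0.44. Called higher, 2 of 14 is near the 13.9% of all tested genes. HUWE1, a ubiquitin ligase that targets NR1D1, rose by 1.012 and FBXW7, another ligase of REV-ERB proteins, by 0.92 on the log2 scale. The main PER kinases CSNK1D and CSNK1E stood at 0.60 and -0.22, both below the fold threshold.

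Among 14 cofactors, all tested, 4 were called higher and 1 lower, with a median of 0.35. The deacetylase SIRT1 rose by 2.07, the acetyltransferases CREBBP and EP300 by 1.64 and 1.60, and the histone methyltransferase KMT2A by 1.37. NONO, a PER-binding RNA and DNA protein, fell by 0.88 on the log2 scale, while its partner SFPQ stood at 0.67 and was not called. NCOR1 and HDAC3, through which REV-ERB receptors repress, stood at 0.52 and 0.06.

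Of 9 genes known as rhythmic outputs in other tissues, 8 were tested, 2 were called higher and 1 lower, with a median of 0.07. KLF10 rose by 2.56 and NAMPT, the rate-limiting enzyme of NAD salvage, by 0.99 on the log2 scale. PPARA, a fatty acid receptor gene, fell by 2.22 on the log2 scale, having passed the limit for testing only through its DMSO samples (2.85 FPKM on average, against 0.538 FPKM with BCT). WEE1, a kinase that delays mitosis, was lower at -0.81 without reaching the fold threshold.

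The list of acute inputs holds factors known to act on PER transcription after stimuli, and companions of that response. Its 9 genes were all tested, 4 were called higher and 0 lower, with a median of 0.53. Over all tested genes, 13.9% were called higher and 17.8% lower. FOS, an immediate-early gene, went from 3.32, 3.71 and 3.26 FPKM to 55.3, 94.4 and 69.2 FPKM, which is 4.34 on the log2 scale. SIK1, a kinase that limits CREB coactivators, rose by 2.64, the glucocorticoid receptor gene NR3C1 by 2.22 and HSF1, the heat shock factor, by 1.17. CREB1 and its coactivators CRTC1, CRTC2 and CRTC3 stood between 0.22 and 0.53, and SRF at -0.01.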

How the data were processed

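Total RNA of 3 DMSO and 3 BCT samples was sequenced after preparation with TruSeq RNA Library Prep Kit v2. Per the paper's methods and the submitters' processing notes, the authors trimmed the reads (Trimmomatic 0.38), aligned them to hg19 with HISAT2, ran StringTie, and deposited 1 FPKM value per gene for each sample. The notes also name HTSeq, and which tool gave the deposited values is not given in the sources used here, nor is the annotation.

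Values were used as deposited. Genes averaging 1 FPKM or more entered a limma 3.58.1 fit (R 4.3.3) of log2(FPKM + 0.1), moderated with an intensity trend, and p-values of the 12729 genes were adjusted after Benjamini and Hochberg. The fold threshold is the study's; of the FDR limits of 0.01 and 0.05 that it states, 0.05 was used and 0.01 was an alternative. The fit was tested on simulated data. Ratios of 2 genes were compared with exact permutation tests over samples (scipy 1.17.1).

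The members, gene lists and tests were chosen with earlier results of these data known. Beyond the members, the named genes are at most 3 called genes per list and direction, markers, genes whose deposited interval overlaps that of a member and those with the most similar profile to the member that rose or fell most. Genes of the lists named without a call, KMT2A, HSF1, SPHK2 and UTS2 (which overlap members in GENCODE but not by deposited interval) fall outside this rule and were picked with their values in view.

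Gene positions (hg19) come from the deposited files, whose starts were raised by 1: so raised, 7961 of 22422 matched genes begin at a GENCODE transcript start, and unraised 857 do. ARNTL matched BMAL1 in GENCODE and RefSeq through RefSeq's synonyms. Promoter sequences are RefSeq's, on GRCh38.p14. Alternatives covered the pseudocount, the filter, 4 other scalings, the FDR, the variance model, the replicate block and each sample left out. No count test was run. Some genes of the lists are counted but not reported here by name.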

Additional observations from a re-analysis of the deposited data

How the results depend on the processing

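Each of 18 alternative settings changed 1 choice. PER1, PER2, CRY2 and ARNTL were called under all of those that tested them, with log2 fold changes of 1.39 to 2.26, 1.80 to 2.73, 1.21 to 2.096 and 1.10 to 2.15; ARNTL and NR1D1 were not tested at a mean of at least 5 FPKM. NR1D1 lost its call with a pseudocount of 1 (0.84). A mean of at least 5 FPKM gave 1150 genes called higher, with 3 clock genes higher and 2 genes of the further lists lower, from the smaller number of genes tested, and no filter gave 2657 genes called higher.

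With samples rescaled to equal FPKM sums, the median gene stood at 0.73 instead of -0.038, and limma called 6359 genes, 5706 higher and 653 lower, against 1764 higher and 2263 lower as deposited. Under it 8 clock genes were called higher and 0 lower, and 35 genes of the further lists higher and 2 lower. With MIR6087, which made up 31.7% to 55.3% of a sample's sum, left out of the sum, the median was 0.35, with 3402 genes higher and 1191 lower, 0 clock genes lower and 24 genes of the further lists higher. CRY1 and CLOCK were called under both rescalings and NR1D2 under the first. Relative to the median of all genes, the values of the clock genes differed little between scalings, with PER2 at 1.95 to 2.01 and DBP at -1.10 to -1.04.

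Leaving out 1 sample gave 3822 to 4428 genes called and 6 to 7 clock genes. The NR1D1 to ARNTL difference ranged from -0.26 to 0.0084, reversed without DMSO replicate 3, and was -0.26 with a pseudocount of 1. Samples share replicate numbers, but deviations from the group means correlated at only 0.116, 0.033 and 0.034 between same-numbered samples, and not every sample correlated best with its own number. With the replicate block, 4033 genes and 6 clock genes were called, and no call of a clock gene changed. FPKM holds no counts, so the precision of the lowest genes, PER3 and NR1D1, is known only from the spread of 3 samples.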

Other observations

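The genes whose profile over the 6 samples was most like that of PER2, the clock gene with the largest rise, were RNF19B, MUM1L1 and PCNXL2. Each profile was centered on its DMSO mean on the log2 scale, and the root mean square difference from PER2 was 0.027, 0.033 and 0.038. RNF19B, a ubiquitin ligase gene, measured 6.77, 7.39 and 6.81 FPKM in the vehicle samples against 24.8, 31.1 and 29.3 FPKM after BCT. For DBP, the nearest were PDK1, PCDHB11 and AFAP1L2, at 0.075, 0.080 and 0.082. PDK1, a kinase that inhibits pyruvate dehydrogenase, measured 5.11, 4.02 and 5.53 FPKM in the vehicle samples against 2.37, 2.34 and 2.29 FPKM after BCT, with the same low DMSO replicate 2 as DBP. These 6 genes were picked from all tested genes for their likeness, which is a description of these samples.

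RORA, the activator that competes with REV-ERB receptors, lay below the limit for testing. It measured 0.101, 0.090 and 0.088 FPKM in the vehicle samples against 0.166, 0.213 and 0.174 FPKM after BCT. Without the filter on low values its log2 fold change was 0.56 (limma over 21543 genes, adjusted p = 0.0048).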
